A study of Arabidopsis thaliana with 18 samples.

Results

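The autonomous flowering pathway genes examined here are *FPA* (AT2G43410), *FCA* (AT4G16280), *FLK* (AT3G04610), *FY* (AT5G13480), *FVE* (AT2G19520), *FLD* (AT3G10390), *REF6* (AT3G48430) and *LD* (AT4G02560). They were taken by gene identifier from a table of RNA-seq read counts, in which all 8 of 8 were found among 33602 genes, and all 8 passed the filter on low counts, as did 20143 genes in all. Messenger RNA of whole 8-day-old *Arabidopsis thaliana* seedlings was sequenced from 6 groups of 3 libraries, 18 libraries in all. The groups were *bdr1* (line SALK_142108C), *bdr2* (line CS852350), *bdr3* (line SALK_059905), the triple mutant *bdrs* that combines these alleles, the flowering mutant *fpa* (allele *fpa-7*), and the wild type Col-0 (WT), the background of every mutant. Each mutant genotype was represented by 1 line. Sown seeds of every group were stratified for 4 days at 4 °C, and plates then stood at 21 °C under a day of 16 h and a night of 8 h, with no other treatment. *BDR1*, *BDR2* and *BDR3* encode BORDER proteins, which carry a SPOC domain like that of FPA.

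The autonomous pathway promotes flowering irrespective of day length by keeping the floral repressor *FLC* low, and plants that lose 1 of its genes flower late until a period of cold silences *FLC*. Its products fall into proteins that bind or cleave RNA and proteins that modify chromatin. FPA and FCA are RNA-binding proteins that favour use of the proximal poly(A) site in the antisense transcripts of *FLC*, and FPA does the same in its own transcript. FY is a WD-repeat subunit of the cleavage and polyadenylation machinery, and FLK is a KH-domain RNA-binding protein. FVE is a WD-repeat protein of histone deacetylase complexes, FLD resembles the human histone demethylase LSD1, REF6 removes methyl groups from histone H3 lysine 27, and LD is a homeodomain protein. In Col-0 seedlings *FLC* is low, since this accession lacks an active *FRI* allele.

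Each value below counts reads over all exons of a gene, and gene positions are those that RefSeq gives on TAIR10.1. *FPA* lay at chr2:18025247-18031255 on the minus strand with 6 annotated transcripts, *FCA* at chr4:9206597-9214981 on the minus strand with 4, *FLK* at chr3:1250553-1254984 on the minus strand with 4, and *FY* at chr5:4326397-4331971 on the minus strand with 4. *FVE* lay at chr2:8455756-8459642 on the plus strand with 1 transcript, *FLD* at chr3:3229060-3232531 on the plus strand with 4, *REF6* at chr3:17935256-17940792 on the plus strand with 2, and *LD* at chr4:1123475-1128490 on the minus strand with 2. Counts over a whole gene do not separate proximal from distal poly(A) isoforms of *FPA* or *FCA*. *FPA* overlapped the 3′ end of *ETFQO* by 46 bp and *FLD* overlapped the 3′ end of AT3G10405 by 75 bp, in both cases on the opposite strand, and no source used here says whether reads were counted by strand. Reads from these short overlaps are therefore uncertain.

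Because the study asks how BORDER proteins act where genes lie close together, the stretch separating each gene from its upstream neighbour was read from the genome. At 3 of the 8 genes it was at most 25 bp, and these stretches are shown because they are the closest upstream borders of the 8 genes. They are written 5′ to 3′ on the strand of the named gene, from TAIR10.1, with no letter capitalised.
FPA, from AT2G43420 on the same strand (chr2:18031256-18031267, minus strand): taaaagccgccg
FLD, from SEC8 on the opposite strand (chr3:3229035-3229059, plus strand): ttcaattaaataaagataaagttaa
LD, from CUL1 on the opposite strand (chr4:1128491-1128514, minus strand): cagagatctacatcaagacgctgc
A or T made up 5 of the 12 bases at *FPA*, 22 of the 25 at *FLD* and 12 of the 24 at *LD*. *FPA* therefore began 12 bp from the annotated end of a gene on its own strand, whereas *FLD* and *LD* each began beside a gene that ran the other way.

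Between 11566600 and 21084793 reads were counted in a library, of which the 8 genes together received 1415 to 5344 reads per library. A single one of these genes received 73 to 1068 reads in a library. Ribosomal RNA took 1.78% of reads in *fpa* 3, 1.65% in *bdrs* 1 and 1.01% in *bdr1* 3, and 0.0531% to 0.659% in the other 15 libraries. The labels of the mutants were examined with the mutated genes. *BDR1* averaged 7.28 ± 0.49 CPM (reads per 1000000 of the TMM-scaled library) in *bdr1* and 3.47 ± 0.47 CPM in *bdrs*, against 29.3 ± 4.39 CPM in WT (SD, n = 3 each). *BDR2* averaged 6.61 ± 1.15 CPM in *bdr2* and 7.74 ± 0.25 CPM in *bdrs*, against 15.5 ± 1.03 CPM in WT. *BDR3* averaged 6.46 ± 1.44 CPM in *bdr3* and 7.29 ± 1.22 CPM in *bdrs*, against 8.06 ± 0.55 CPM in WT, and passed the test in neither, so counts over this gene do not check those labels. *FPA* is itself the mutated gene of *fpa* and is described next.

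**Figure D1:**
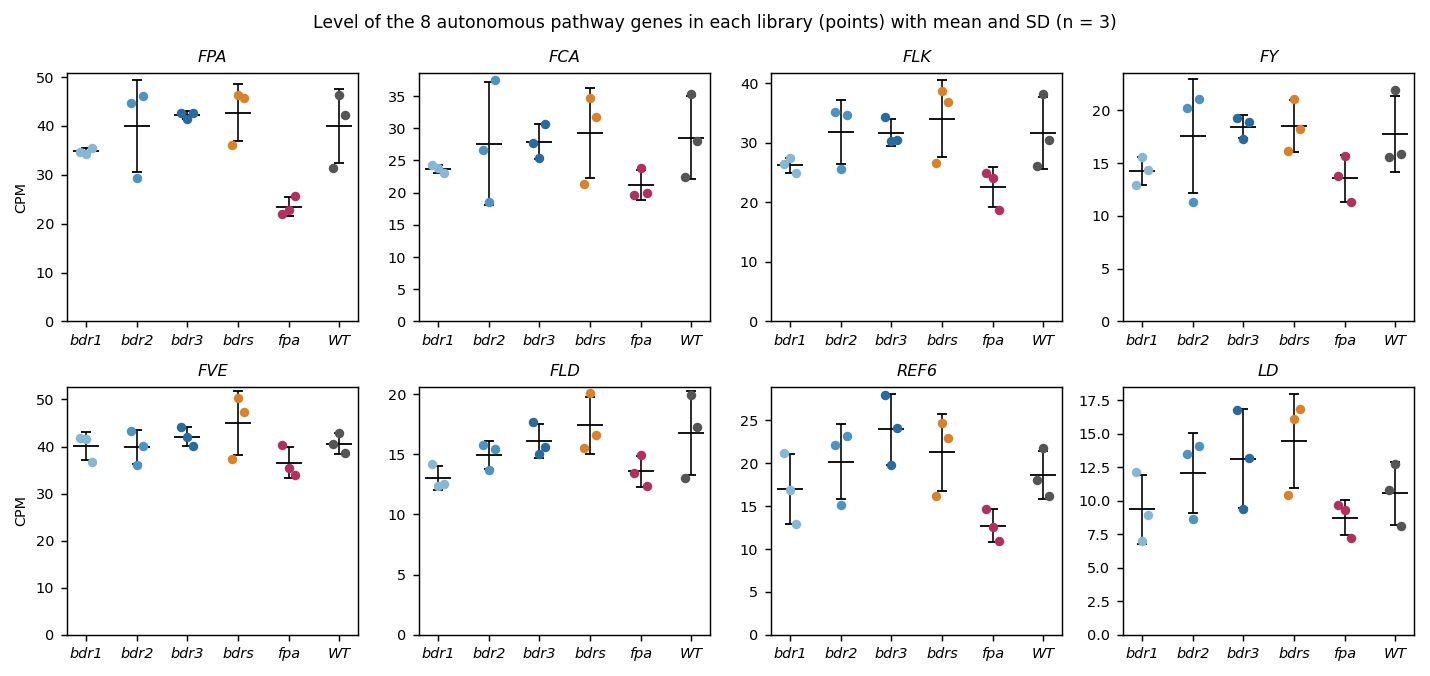
Level of each autonomous pathway gene in CPM (vertical axis starting at 0) in the 6 groups (horizontal axis, WT at the right). Points are libraries, and the horizontal bar with whiskers is the mean and SD of 3 libraries. The 3 *fpa* libraries lie below all 15 others for *FPA*, whereas the *bdrs* and WT libraries overlap for all 8 genes.

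*FPA* was the only autonomous pathway gene whose level passed the test against WT in any mutant, and it did so in its own mutant. *FPA* stood at 21.9, 22.8 and 25.7 CPM in *fpa*, against 31.5, 46.3 and 42.2 CPM in WT. All 3 *fpa* libraries lay below all 15 libraries of the other groups, which ran between 29.3 and 46.3 CPM. The log2 fold change was −0.77 ± 0.17 (SE; 95% interval −1.13 to −0.42), a level 0.585 of that in WT (edgeR quasi-likelihood test, Benjamini-Hochberg adjusted p = 0.01). It thus made up 1 of 8 pathway genes called lower, where 3.12% of all tested genes were called lower and 4.43% were called in either direction. Blocking on replicate number gave 1362 called genes in all (474 higher and 888 lower), in place of 893, and *FPA* kept its call (adjusted p = 0.00646). The call was lost when WT 2, *fpa* 1 or *fpa* 2 was left out, with adjusted p up to 0.0797 and log2 fold changes between −0.92 and −0.65 over all 6 such fits.

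The fall of *FPA* came with a trend over gene length in the same libraries. Taken as the union over its 6 annotated transcripts, the exons of *FPA* span 5273 bp, longer than 98.7% of the tested genes. Among the 528 tested genes with at least 4500 bp of exons, the median log2 fold change in *fpa* was −0.48, and 93.2% of them lay below 0. When a length trend was removed from each library, *FPA* stood at −0.31 in *fpa* and no longer passed (adjusted p = 0.371, or 0.195 with the replicate block as well). *FLC*, the gene that FPA represses, was little affected by that step, with a log2 fold change of 3.62 in *fpa* against 3.76 without it. A change of that size exceeds the length trend, so this value does not show how the step acts on smaller changes such as that of *FPA*. The part of the length trend in the lower *FPA* level was not tested, and fewer transcripts per cell and fewer cells with the transcript cannot be told apart in whole seedlings.

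In the BORDER mutants *FPA* was close to WT. It stood at 36.0, 46.3 and 45.8 CPM in *bdrs*, against 31.5, 46.3 and 42.2 CPM in WT, and the groups overlapped. The log2 fold change of 0.10 had a 95% interval of −0.25 to 0.44 (adjusted p = 0.857). *FPA* stood at 34.8, 34.3 and 35.5 CPM in *bdr1*, at 44.6, 29.3 and 46.2 CPM in *bdr2* and at 42.8, 41.4 and 42.7 CPM in *bdr3*. The *bdr1* and *bdr3* libraries varied little among themselves, and each of these groups lay inside the WT range. The library *bdr2* 2 was the lowest of the 15 outside *fpa*.

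The tandem gene just upstream of *FPA*, AT2G43420, averaged 29.5 ± 1.78 CPM in *bdrs*, against 31.8 ± 0.88 CPM in WT, a log2 fold change of −0.11 (adjusted p = 0.773). Per kilobase of exon, this neighbour stood above *FPA* in WT, with 14.7 RPKM against 7.59 RPKM. In CPM the order of the WT means was the reverse, with *FPA* libraries at 31.5, 46.3 and 42.2 CPM against the mean of 31.8 CPM. The RPKM of *FPA* rests on an exon length of 5273 bp, the union over 6 annotated transcripts. The order of the 2 genes thus differed between CPM, which uses no length, and RPKM. A shorter length would raise the RPKM of *FPA*, and other lengths were not tried. In *bdrs*, 119 of 844 tested genes with a tandem upstream neighbour within 50 bp were called lower (14.1%), against 6 of 346 with an opposite-strand neighbour at that distance (1.73%) and 559 of all 20009 with a neighbour (2.79%). *FPA*, with its gap of 12 bp, belonged to the first of these classes and was not among the genes called lower. Its downstream neighbour *ETFQO*, which encodes a mitochondrial electron-transfer oxidoreductase, averaged 19.1 ± 1.26 CPM in *fpa*, against 21.4 ± 3.27 CPM in WT (log2 fold change −0.17, adjusted p = 0.544).

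**Figure D2:**
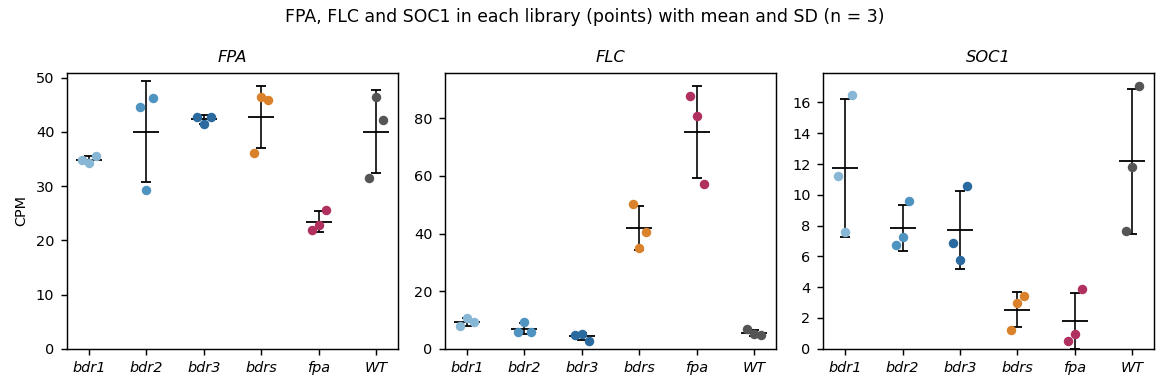
Levels of *FPA*, the floral repressor *FLC* and the flowering promoter *SOC1* in CPM (vertical axes starting at 0) in the 6 groups, WT at the right. Points are libraries, bars and whiskers are mean and SD of 3. All *bdrs* and *fpa* libraries lie above WT for *FLC* and below WT for *SOC1*, and *FPA* is called lower in *fpa*.

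*FLC*, the MADS-box repressor on which the pathway acts, rose in both *bdrs* and *fpa*. It stood at 50.3, 35.1 and 40.6 CPM in *bdrs* and at 87.7, 80.9 and 57.2 CPM in *fpa*, against 6.69, 5.06 and 4.95 CPM in WT. No library of *bdrs* or *fpa* overlapped WT, and no library of *bdrs* overlapped *fpa*. The log2 fold changes were 2.91 ± 0.24 in *bdrs* (adjusted p = 1.36e-07) and 3.76 ± 0.24 in *fpa* (adjusted p = 7.96e-09), and *bdrs* stood 0.85 below *fpa* on the log2 scale (log2 fold change −0.85 ± 0.21, adjusted p = 0.0114). *SOC1*, a flowering promoter that FLC represses, fell to 1.24, 2.97 and 3.41 CPM in *bdrs* and to 0.526, 0.985 and 3.86 CPM in *fpa*, against 7.67, 11.8 and 17.0 CPM in WT (adjusted p = 0.0049 in *bdrs* and 0.00103 in *fpa*). *FT*, the mobile flowering signal, received 0 to 8 reads in each library and was not tested. In *bdrs*, where *FLC* was high, 0 of the 8 autonomous pathway genes passed the test against WT, and 4.67% of all tested genes did. The part of the 8 genes in the level of *FLC* was not tested. The single mutants gave no call for *FLC*, with 7.84, 10.6 and 9.27 CPM in *bdr1*, all above the 3 WT libraries (log2 fold change 0.73, adjusted p = 0.777).

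*FCA* and *FY*, which act together at poly(A) sites, passed no test. *FCA* stood at 19.7, 23.9 and 19.9 CPM in *fpa*, against 22.4, 35.3 and 28.0 CPM in WT, and the groups overlapped (log2 fold change −0.43 ± 0.22, adjusted p = 0.27). With the length trend removed as for *FPA*, the sign turned, at 0.04 (adjusted p = 0.944). In *bdrs* it stood at 21.4, 34.7 and 31.7 CPM (0.04 ± 0.22, adjusted p = 0.964). *FCA* varied widely within groups, and in *bdr2* it covered 18.5 to 37.6 CPM, the lowest and the highest value of all 18 libraries. *FY* stood at 13.7, 15.7 and 11.3 CPM in *fpa*, against 15.6, 21.9 and 15.9 CPM in WT (−0.38 ± 0.20, adjusted p = 0.287). In *bdr1* *FY* stood at 12.9, 15.6 and 14.3 CPM, so that its highest library fell just short of the lowest WT library, at a log2 fold change of −0.32 ± 0.20 (adjusted p = 0.777). It was the 1 pathway gene whose *bdr1* libraries all lay below WT, where 5.24% of tested genes did so. The upstream neighbour of *FCA*, the self-incompatibility homologue *SPH1* at 698 bp, had no read in any library, and that of *FY*, the pseudogene AT5G13485 at 975 bp, averaged at most 0.106 CPM in any group.

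*FLK* had the second-smallest p in *fpa*. It stood at 25.0, 24.1 and 18.8 CPM in *fpa*, against 26.2, 38.2 and 30.5 CPM in WT. The 2 groups did not overlap, but the highest *fpa* library and the lowest WT library were close. The log2 fold change of −0.48 ± 0.17 had an unadjusted p of 0.0122 and an adjusted p of 0.125 in edgeR, so it was not called. In *bdrs* *FLK* stood at 26.6, 38.8 and 36.9 CPM (log2 fold change 0.11 ± 0.17, adjusted p = 0.839). In the single mutants it ranged from 25.0 to 27.5 CPM in *bdr1*, from 25.6 to 35.1 CPM in *bdr2* and from 30.4 to 34.4 CPM in *bdr3*. The tandem gene *DAN1* lay 413 bp upstream of *FLK* and averaged 1.34 ± 0.41 CPM in *bdrs*, against 0.83 ± 0.27 CPM in WT (log2 fold change 0.71, adjusted p = 0.333).

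Among the genes for chromatin proteins, *REF6* spread most over the libraries and *FVE* least. *REF6* stood at 14.7, 12.6 and 10.9 CPM in *fpa*, against 18.1, 21.7 and 16.2 CPM in WT, with no overlap. Its log2 fold change of −0.55 ± 0.21 had an unadjusted p of 0.019 and did not pass in edgeR (adjusted p = 0.151). In *bdrs* it stood at 16.2, 24.7 and 22.9 CPM (0.19 ± 0.21, adjusted p = 0.747), and in *bdr3* at 28.0, 19.8 and 24.1 CPM, the highest group mean of the gene (0.36 ± 0.21, adjusted p = 1). *REF6* stood at 21.2, 16.9 and 13.0 CPM in *bdr1* and 22.1, 15.2 and 23.2 CPM in *bdr2*. Its exons span 4796 bp, longer than 98.1% of tested genes. AT3G48425, 511 bp upstream of *REF6* on the same strand, was the only tested upstream neighbour of the 8 genes called in *bdrs*. It stood at 2.07 ± 0.23 CPM in *bdrs*, against 3.65 ± 0.43 CPM in WT (log2 fold change −0.82 ± 0.23, adjusted p = 0.0455). Of all tested genes, 4.67% were called in *bdrs*. The upstream neighbours of *FCA*, *FY* and *FVE* did not pass the filter on low counts and were not tested.

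*FVE* stood at 40.4, 35.5 and 34.0 CPM in *fpa* and at 37.4, 50.4 and 47.3 CPM in *bdrs*, against 40.4, 42.9 and 38.5 CPM in WT. The log2 fold changes of −0.15 ± 0.13 in *fpa* (adjusted p = 0.536) and 0.15 ± 0.13 in *bdrs* (adjusted p = 0.662) carried the smallest standard errors of the set. Over all 18 libraries *FVE* spanned 34.0 to 50.4 CPM, a ratio of 1.48, whereas *REF6* spanned a ratio of 2.57. *FVE* is also the shortest of the 8 genes, with 2181 bp of exons. *FLD* stood at 13.5, 14.9 and 12.4 CPM in *fpa*, against 13.0, 19.9 and 17.3 CPM in WT (−0.30 ± 0.16, adjusted p = 0.281). In *bdr1* it stood at 14.2, 12.3 and 12.5 CPM, and 2 of these libraries lay below all WT libraries. The log2 fold change of −0.36 ± 0.16 had an unadjusted p of 0.0316 and an adjusted p of 0.777 in edgeR, and no other pathway gene had an unadjusted p under 0.05 in a single mutant. In *bdr1*, 5.78% of all tested genes had such a p. *SEC8*, an exocyst subunit gene that shares the 25 bp border with *FLD*, averaged 40.6 ± 7.76 CPM in *fpa*, against 61.8 ± 10.7 CPM in WT (−0.60 ± 0.21, adjusted p = 0.105).

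*LD*, the least abundant of the 8, had the largest difference in *bdrs*. It stood at 10.4, 16.1 and 16.8 CPM in *bdrs*, against 10.8, 12.8 and 8.10 CPM in WT. The library *bdrs* 1 lay within the WT range and the other two above it. The log2 fold change of 0.46 ± 0.25 had a 95% interval of −0.07 to 0.99 and did not pass (adjusted p = 0.435). *LD* stood at 9.71, 9.30 and 7.23 CPM in *fpa* (−0.26 ± 0.26, adjusted p = 0.595). It stood at 12.1, 7.02 and 8.93 CPM in *bdr1*, at 13.5, 8.62 and 14.1 CPM in *bdr2* and at 16.8, 9.40 and 13.2 CPM in *bdr3*, a wide spread in each. *CUL1*, the cullin gene that shares the 24 bp border with *LD*, averaged 111 ± 8.29 CPM in *bdrs*, against 99.0 ± 7.53 CPM in WT (0.17 ± 0.14, adjusted p = 0.645).

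Within WT, the level per kilobase of exon fell into a clear upper end and a graded lower end. *FVE* led with 18.6 ± 1.00 RPKM, followed by *FLK* with 11.9 ± 2.30 and *FPA* with 7.59 ± 1.45 RPKM (SD, n = 3). *FY* had 6.27 ± 1.26, *FCA* 5.35 ± 1.21, *FLD* 5.31 ± 1.1, *REF6* 3.89 ± 0.59 and *LD* 3.22 ± 0.71 RPKM. The ranges of *FVE* and *FLK* overlapped with neither each other nor the next gene. From *FPA* down to *LD* every pair of neighbours in this order overlapped, so the order of adjacent genes is not set by 3 libraries. Genes further apart could separate, as all WT libraries of *FPA* and *FY* lay above all those of *REF6* and *LD*. *FVE* stood 5.79 times above *LD*. This order rests on exon lengths taken as the union over all annotated transcripts of each gene. In CPM the WT ranges of *FVE* (38.5 to 42.9) and *FPA* (31.5 to 46.3) overlapped.

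**Figure D3:**
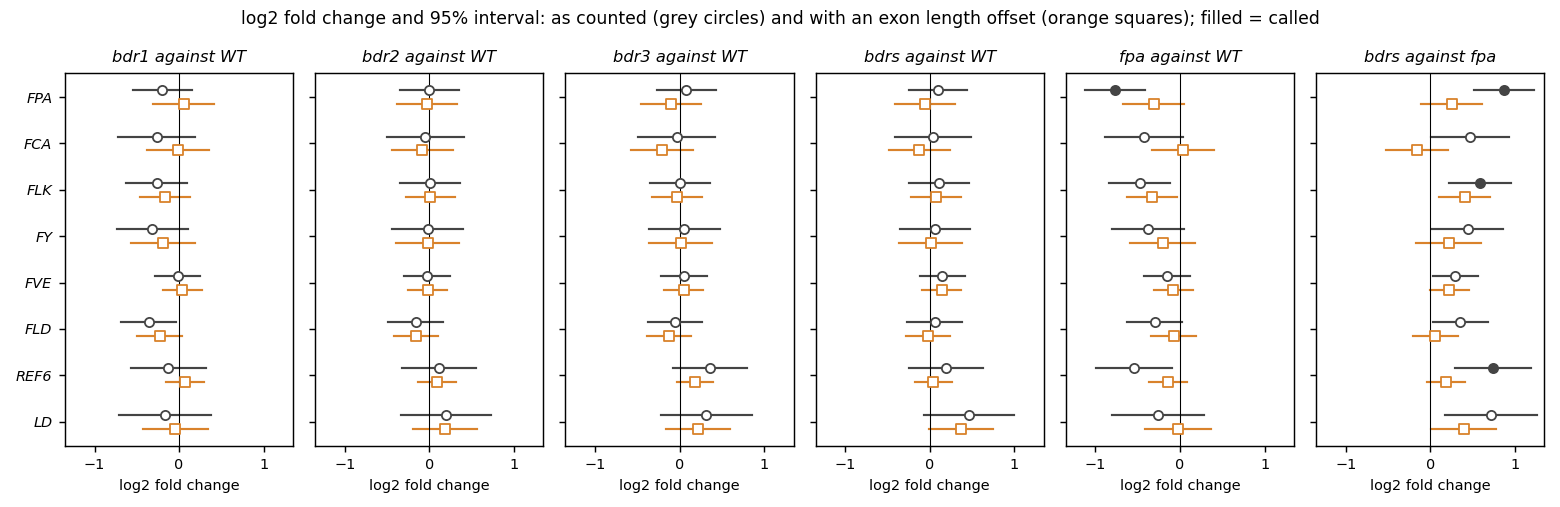
log2 fold change (horizontal axis) of each autonomous pathway gene in 6 comparisons, with 95% intervals. Grey circles are values as counted, orange squares are values after removing a trend over exon length from each library, and filled symbols are called at an adjusted p under 0.05. As counted, *FPA* is called lower in *fpa* against WT, and *FPA*, *FLK* and *REF6* are called higher in *bdrs* against *fpa*, whereas no orange symbol is filled.

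Counted over the pathway, the BORDER mutants gave no call. In *bdr1*, *bdr2* and *bdr3* against WT, 0 of 8 genes were called by edgeR, where 0.0248%, 0.0397% and 0.0199% of all genes were, in that order. By DESeq2 0 of 8 were called as well, and at an unadjusted p under 0.05 in edgeR there were 1, 0 and 0, where 5.78%, 0.794% and 4.43% of all genes were. In *bdrs* 0 of 8 were called by edgeR and by DESeq2, against 4.67% of all genes, and 0 of 8 had an unadjusted p under 0.05, against 14.7%. No pathway gene had non-overlapping *bdrs* and WT libraries, where 18.1% of all genes did. The 8 log2 fold changes in *bdrs* lay between 0.04 and 0.46, with a median of 0.10 beside 0.01 over all tested genes. Their 95% intervals all included 0, the narrowest being that of *FVE* (−0.12 to 0.42) and the widest that of *LD* (−0.07 to 0.99).

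In *fpa*, all 8 log2 fold changes lay below 0, between −0.77 and −0.15, with a median of −0.41 beside 0.01 over all tested genes. Of the 8, 3 had an unadjusted p under 0.05 (*FPA*, *FLK* and *REF6*), where 21% of all genes did, and the same 3 had no overlap with WT on the lower side, where 14.7% of all genes did. In *bdr1* the 8 values were also all below 0, with a median of −0.23 beside 0.02 over all genes. In *bdr2* they were split 4 and 4 around a median of −0.01, and in *bdr3* 6 of 8 lay above 0 around a median of 0.05. These comparisons share their WT libraries, and WT 2 was the highest WT library for all 8 genes, so the directions are not independent of each other.

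In *fpa*, *bdr1* and *bdrs*, the direction of the 8 genes was also that of the median of long genes in the same libraries. Tested genes were put into 5 classes of exon length of about equal size, and 7 of the 8 pathway genes fell into the longest class (2595 to 16614 bp), with *FVE* in the next one down. In *fpa* the median log2 fold change was −0.25 in the longest class and 0.25 in the shortest. In *bdr1* it was −0.14 in the longest and 0.21 in the shortest, and in *bdrs* 0.10 in the longest and −0.06 in the shortest. In *bdr2* both were near 0 (−0.00043 and 0.01) and in *bdr3* they were 0.09 and −0.04. After the length trend was removed, the medians of the 8 genes were −0.11 in *fpa*, −0.03 in *bdr1* and 0.03 in *bdrs*, with 7, 5 and 3 of 8 values below 0, and no pathway gene was called in these 3 comparisons. *FLK* had the largest remaining difference in *fpa*, at −0.33 (adjusted p = 0.226). The part of gene length in the directions of the 8 genes was not tested.

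**Figure D4:**
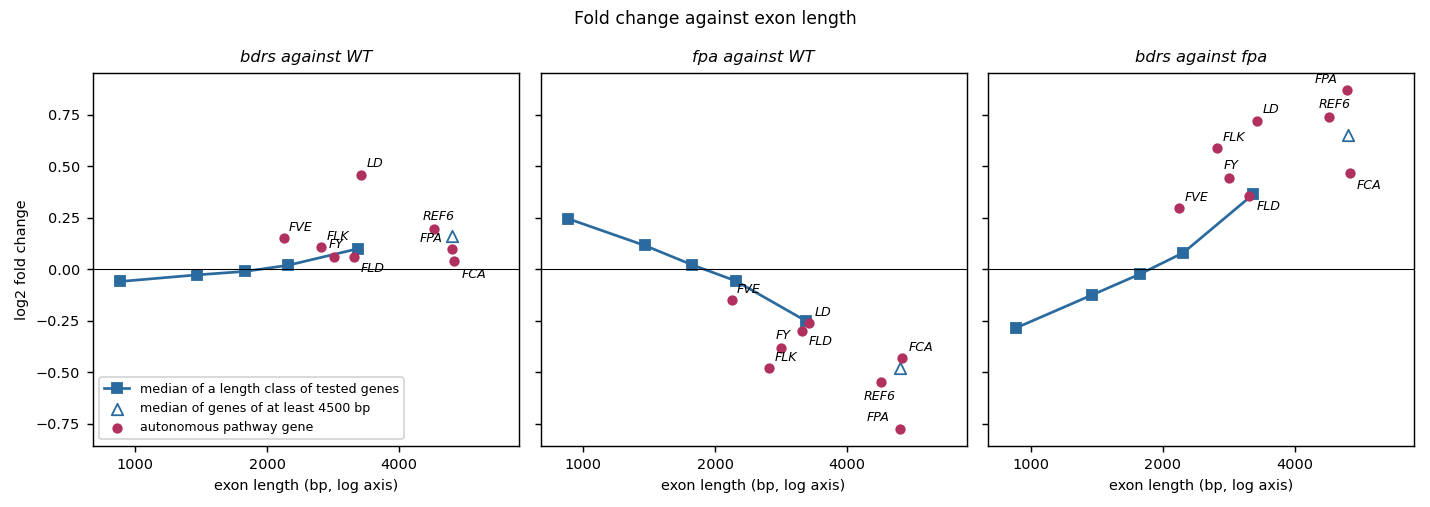
log2 fold change (vertical axis) against exon length in bp (horizontal log axis) in 3 comparisons. Blue squares are medians of 5 length classes of tested genes, the open triangle is the median of the 528 genes of at least 4500 bp, and red points are the 8 autonomous pathway genes. In *fpa* against WT the medians fall with length and all 8 genes lie below 0, and in *bdrs* against *fpa* the medians increase with length and all 8 lie above 0.

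The deviations can also be set side by side library by library. The mean deviation of the 8 genes from their average over 18 libraries was lowest in *fpa* 3, at −0.49 on the log2 scale, where the longest class of genes stood at a median of −0.36 and the shortest at 0.30. It was highest in *bdrs* 2, at 0.41, with 0.22 in the longest class and −0.22 in the shortest. The 8 genes lay further out than the longest class in *bdr2* 2 (−0.30 against −0.12) and in *fpa* 1 (−0.28 against −0.09). In *bdr1* 1 (−0.04 for the 8 genes, 0.14 for the longest class) and *bdr3* 2 (0.03 and −0.03) they lay on opposite sides of 0. Within *bdrs*, the library *bdrs* 1 stood at −0.10, against 0.41 and 0.30 in the other two, and within WT the values were −0.11, 0.32 and −0.02. The 3 libraries of *bdr2* stood at 0.20, −0.30 and 0.28. The library *fpa* 3 also had the fewest reads and the highest ribosomal share, and the part of either in its low values was not tested.

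**Figure D5:**
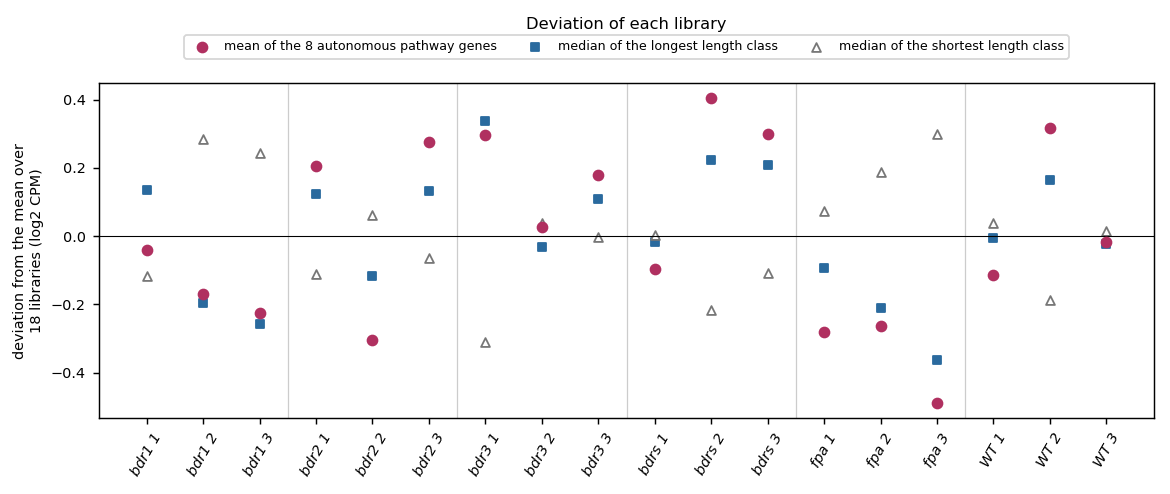
Deviation of each library (horizontal axis) from the mean over 18 libraries, in log2 CPM (vertical axis). Red circles are the mean of the 8 autonomous pathway genes, blue squares and open triangles the medians of the longest and the shortest length class of tested genes. The 8 genes stand at −0.49 in *fpa* 3 and at 0.41 in *bdrs* 2, on the same side of 0 as the longest class in both.

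The genotypes *bdrs* and *fpa*, both with high *FLC*, were also set against each other directly. In *bdrs* against *fpa*, 3 of 8 pathway genes were called higher, where 10.8% of all genes were called higher and 19.9% were called in either direction. *FPA* stood at 36.0, 46.3 and 45.8 CPM in *bdrs*, against 21.9, 22.8 and 25.7 CPM in *fpa* (log2 fold change 0.87 ± 0.17, adjusted p = 0.00219). *REF6* stood at 16.2, 24.7 and 22.9 CPM in *bdrs*, against 14.7, 12.6 and 10.9 CPM in *fpa* (0.74 ± 0.21, adjusted p = 0.0221), and *FLK* at 26.6, 38.8 and 36.9 CPM in *bdrs*, against 25.0, 24.1 and 18.8 CPM in *fpa* (0.59 ± 0.17, adjusted p = 0.0242). *LD* just missed the threshold (0.72 ± 0.26, adjusted p = 0.0559). All 8 values lay above 0, with a median of 0.53 beside 0.01 over all genes, all 8 had an unadjusted p under 0.05 where 35.4% of all genes did, and 6 of 8 did not overlap where 18.1% of genes lay higher without overlap.

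The comparison of *bdrs* with *fpa* had the steepest length trend of the 6. The median log2 fold change was 0.36 in the longest class and −0.28 in the shortest, and 0.65 among the 528 genes of at least 4500 bp, of which 279 were called higher (52.8%). With the length trend removed, 0 of 8 pathway genes were called, and 1, *FLK*, when the replicate block was added. *FPA* then stood at 0.25, *REF6* at 0.19, *FLK* at 0.41 and *LD* at 0.39, and *FCA* changed sign, at −0.16 in place of 0.47, so that 7 of 8 values lay above 0. The calls of *FLK* and *REF6* were also lost when *bdrs* 2, *bdrs* 3, *fpa* 2 or *fpa* 3 was left out, which left *FPA* as the only call, and 6 genes were called without *bdrs* 1.

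Related genes outside the 8 were listed by role. Of 7 paralogs, *MSI5*, the closest relative of *FVE*, was the only one called against WT. It was called in *bdrs*, where 4.67% of all tested genes were called. *MSI5* fell to 2.55, 4.91 and 3.76 CPM in *bdrs*, against 6.69, 7.15 and 7.59 CPM in WT (log2 fold change −0.91 ± 0.20, adjusted p = 0.00737). In *fpa* 0 of 7 paralogs were called, the smallest p being that of *ELF6*, the paralog of *REF6* (−0.45, adjusted p = 0.184). In *bdrs* against *fpa*, where 10.8% of all tested genes were called higher, 4 paralogs were, namely *ELF6* (0.81) and the relatives of *FLD*, *LDL1* (0.52), *LDL2* (0.76) and *LDL3* (0.70). *MSI5* (−0.64) and *PEP* (−0.44), a KH-domain relative of *FLK*, were called lower, where 19.9% of all tested genes were called in either direction. With the length trend removed, *LDL2* (0.55), *MSI5* (−0.67) and *PEP* (−0.48) passed, and *ELF6* (0.26), *LDL1* (0.33) and *LDL3* (0.01) did not. *FVE* itself stood at 0.15 in *bdrs* against WT and at 0.30 in *bdrs* against *fpa*.

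Of 14 partners of the pathway (3′ end processing, splicing and chromatin factors), 0 were called in *bdrs*, the smallest p being that of the histone methyltransferase gene *SDG26* (adjusted p = 0.544), and 1 in *fpa*. *PRP8A*, a core splicing factor, fell to 157, 142 and 104 CPM in *fpa*, against 208, 275 and 205 CPM in WT (−0.77 ± 0.21, adjusted p = 0.0435). Of all tested genes, 3.12% were called lower in *fpa*. In *bdrs* against *fpa*, *PRP8A* (0.80) and the cleavage factor gene *CSTF77* (0.60) were called higher, where 10.8% of all tested genes were. With the length trend removed, *PRP8A* stood at −0.18 in *fpa* (adjusted p = 0.387), and 0 of 14 partners were called in either comparison. No partner, paralog or member was called in any single mutant, where the only listed genes called were the mutated *BDR1* in *bdr1* and *BDR2* in *bdr2*.

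Genes whose profile over the 18 libraries lay nearest to that of a member were found for the 4 members whose group means spanned at least 0.5 on the log2 scale. The measure was the root-mean-square difference of centred log2 CPM. *FPA* was nearest to *PKP-ALPHA* (0.072), a plastid pyruvate kinase gene, AT5G01980 (0.10) and *ACLB-1* (0.11), an ATP-citrate lyase gene, whose exons span 2256 to 2779 bp, less than the 5273 bp of *FPA*. *FLK* was nearest to AT4G32760 (0.067), *SCD1* (0.081) and *MBR2* (0.088), with 2885 to 4681 bp. *REF6* was nearest to *CHR5* (0.055), a chromatin remodeller gene, *G2484-1* (0.068) and *RLT2* (0.074), whose exons span 6096 to 6691 bp. *LD* was nearest to *XIH* (0.13), *ESP4* (0.13) and *INO80* (0.13), with 5032 to 5305 bp of exons. No member was among the 3 genes nearest to another member, but members are only 8 of the 20143 tested genes. The difference between 2 members ran from 0.13 to 0.32 over their 28 pairs, with a median of 0.22. The median difference from all tested genes was 0.44 for *FPA*, 0.39 for *FLK*, 0.46 for *REF6* and 0.47 for *LD*.

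Markers of organs and cell types were examined beside these results, since whole seedlings mix them. The summed level of 12 root markers ran from 2376 to 3403 CPM in *bdrs* and from 2735 to 4265 CPM in *fpa*, against 2847 to 3912 CPM in WT. That of 8 leaf photosynthesis markers ran from 63862 to 93782 CPM in *bdrs* and from 60419 to 117899 CPM in *fpa*, against 78564 to 94144 CPM in WT. Neither list had a marker at 0 in any group. Of 11 tested root markers 0 were called in *bdrs*, and 2 were called in *fpa*, where 4.43% of all tested genes were. *EXPA7*, a root hair gene, was higher (0.73, adjusted p = 0.0179) and *SCR*, an endodermis gene, lower (−0.59, adjusted p = 0.0403). With the length trend removed, neither was called in *fpa* (adjusted p = 0.0985 and 0.104). In *bdrs* 1 other root marker was then called lower (−0.84, adjusted p = 0.0219). Of 5 seed storage and maturation genes, 5 were called lower in *bdrs* and 5 in *fpa*, and their sum ran from 76.5 to 158 CPM in *bdrs* and from 42.9 to 55.4 CPM in *fpa*, against 357 to 558 CPM in WT. Of 5 shoot meristem markers 3 were tested, and *STM* was called higher in *bdrs* at 0.68 (adjusted p = 0.0276), while *KNAT1* stood at 0.20 (adjusted p = 0.713) and *CUC2* at −0.35 (adjusted p = 0.628). The part of these differences in the levels of the autonomous pathway genes was not tested.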

How the data were processed

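Per the labels and the study's methods, the authors prepared strand-specific mRNA libraries from 1.5 µg of total RNA, aligned reads to TAIR10 with STAR 2.5.2b, used SAMtools 1.3.1 and counted reads per gene with featureCounts. The deposited table holds raw counts, not normalized. The authors' normalized table (DESeq2 1.14.1 in R 3.3.2) was not used. No column was left unmapped (0 columns). No pair of libraries within a group agreed within sampling noise.

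A single fit over all 18 libraries (edgeR 4.0.16 in R 4.3.3; TMM, filterByExpr, quasi-likelihood, 12 residual degrees of freedom) gave every comparison, with p-values adjusted after Benjamini and Hochberg over 20143 genes. The common biological coefficient of variation was 17.3%, and genes were called at an adjusted p under 0.05. The procedure was also run on simulated counts drawn independently per library, with and without a length trend in *fpa*, linear on log2 exon length. That run does not cover deviations shared by libraries of the same replicate number, or length trends of another shape. Levels are CPM, and RPKM divides them by exon length. The methods call the triplicates of the wild type and the triple mutant biological without stating separate cultures, so p-values measure the spread between these libraries. Line names and growth conditions follow the labels. The methods give another stock for *bdr2*, add a letter to the *bdr3* line name and give a different temperature.

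Gene models came from TAIR10.1, which is newer than the annotation counted, and matched 32835 of 33602 genes. Exon lengths were known for 99.4% of tested genes. Each is the union of the exons of all annotated transcripts, so it can exceed the length of any single transcript. The length alternative, chosen after seeing the data, subtracts from each library a lowess curve (span 0.3) of log2 CPM deviations on log2 exon length. Other alternatives were RLE size factors, DESeq2 1.42.0, no filter on low counts, only the compared groups, leaving out libraries and a replicate block.

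Members and lists were chosen with earlier results of these data known. Named genes were the 8 members, their nearest neighbours, list genes called in a described contrast or else that with the smallest p, *FLC*, *SOC1*, *FT*, the BORDER genes, and the 3 genes nearest to each member in profile (log2 CPM, prior count of 2). A lncRNA gene annotated within *FPA* was not analysed here. For *fpa* and WT, libraries of the same number deviated together (correlations of 0.25, 0.11 and 0.43). The main fit had no term for replicate number in any comparison. The replicate block was fitted only as an alternative, in every comparison.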

Additional observations from a re-analysis of the deposited data

How the results depend on the processing

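The main limit is gene length. With the exon length offset, alone and with the replicate block, *FPA* in *fpa* stood at −0.31 and −0.31 and was not called, so pathway genes called in *fpa* numbered 0 and 0 in place of 1, and in *bdrs* against *fpa* 0 and 1 in place of 3. The cause of the length trend was not tested. The members' counts were 0 against WT in *bdr1*, *bdr2*, *bdr3* and *bdrs* under every alternative run, and the call of *FPA* in *fpa* held under RLE size factors, DESeq2, no filter, the 2 groups alone, the replicate block (−0.77) and without the 3 libraries richest in rRNA, with adjusted p from 0.00122 to 0.0226. *LD* in *bdrs* against *fpa* was called with DESeq2 (adjusted p = 0.0423), with no filter, in the 2 groups alone and with the block (0.0397), and *FLK* was lost in the 2 groups alone (0.0559).

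Over all genes, *bdr1* gave 5 calls, but 24 with DESeq2, 11 with no filter, 20 with the length offset and 40 with offset and block. In *bdr3* the 4 calls became 7 with DESeq2 and 53 in the 2 groups alone. In *bdrs* the 940 calls became 1238 with the replicate block and 1629 with offset and block, and in *fpa* the 893 became 1362 with the block and 1422 with offset and block. The main fit did not take replicate numbers as pairs in any comparison.

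Several values that were not called changed sign, most of them near 0. *FCA* in *fpa* (−0.43) and in *bdrs* against *fpa* (0.47) were not near 0. With the length offset, and with offset and block, the log2 fold changes in *bdr1* became 0.052 and 0.052 for *FPA*, 0.034 and 0.034 for *FVE* and 0.070 and 0.071 for *REF6*. In *bdr2*, *FPA* became −0.030 and −0.014. In *bdr3*, *FPA* became −0.098 and −0.093, and *FLK* −0.027 and −0.020. In *bdrs*, *FPA* became −0.058 and −0.043, *FCA* −0.12 and −0.12, and *FLD* −0.017 and −0.014. *FCA* became 0.035 and 0.042 in *fpa*, and −0.16 and −0.16 in *bdrs* against *fpa*. Without the libraries richest in rRNA, *FVE* (0.033) and *REF6* (0.022) changed sign in *bdr1*. With RLE size factors, DESeq2 and the 2 groups alone, *FPA* in *bdr2* became −0.00086, −0.00018 and −2.6e-05, and *FLK* in *bdr3* −0.0016, −0.0013 and −0.0023.

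Leaving out 1 library at a time gave 4 to 7 calls over all genes in *bdr2*. In *bdrs* it gave 525 (without *bdrs* 2) to 1417 (without *bdrs* 1). In *fpa* it gave 476 (without WT 2) to 804, with 590 without WT 3, 515 without *fpa* 1 and 533 without *fpa* 2. In *bdrs* against *fpa* it gave 1224 (without *bdrs* 2) to 5610 (without *bdrs* 1), with 1748 without *bdrs* 3, 2144 without *fpa* 2 and 2297 without *fpa* 3. Pathway genes called ran from 0 to 1 in *fpa* and from 1 to 6 in *bdrs* against *fpa*, and *FPA* in *fpa* from −0.92 to −0.65. Uncalled values that took both signs were, in *bdr1*, *FVE* (−0.070 to 0.037), *LD* (−0.43 to 0.013) and *REF6* (−0.34 to 0.027). In *bdr2* they were *FPA* (−0.14 to 0.18), *FCA* (−0.34 to 0.17), *FY* (−0.17 to 0.22), *FVE* (−0.090 to 0.040), *FLK* (−0.11 to 0.16) and *REF6* (−0.0031 to 0.28). In *bdr3* they were *FPA* (−0.066 to 0.20), *FCA* (−0.18 to 0.15), *FY* (−0.032 to 0.23), *FLD* (−0.21 to 0.089) and *FLK* (−0.12 to 0.16). In *bdrs* they were *FPA* (−0.050 to 0.21), *FCA* (−0.12 to 0.22), *FY* (−0.060 to 0.23), *FLD* (−0.094 to 0.20) and *FLK* (−0.011 to 0.26).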

Other observations

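Genes that act on *FLC* from outside the autonomous pathway were listed by the direction of their action. Of 21 activators of *FLC* (the FRI complex, the PAF1 and COMPASS complexes, the SWR1 complex and histone ubiquitination), 0 were called in *bdrs* by edgeR, the smallest p being that of *FLX* (adjusted p = 0.499). In *fpa* 2 were called, both lower, where 3.12% of all tested genes were called lower. *ARP6*, an actin-related subunit of the SWR1 complex, fell to 11.8, 11.9 and 15.7 CPM in *fpa*, against 17.5, 25.1 and 24.1 CPM in WT (log2 fold change −0.76 ± 0.21, adjusted p = 0.04). *ATXR7*, a histone methyltransferase gene, fell to 4.85, 3.76 and 3.96 CPM in *fpa*, against 7.73, 8.64 and 6.52 CPM in WT (−0.86 ± 0.24, adjusted p = 0.0456). In *bdrs* against *fpa*, *ARP6* (0.73), *HUB2* (0.73) and *VIP6* (0.69) were called higher, where 10.8% of all tested genes were. With the length trend removed, *ARP6* kept its calls (−0.83 in *fpa*, 0.82 in *bdrs* against *fpa*), and *ATXR7* (−0.41), *HUB2* (0.29) and *VIP6* (0.30) lost theirs.

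Of 10 Polycomb genes that silence *FLC*, 9 were tested, and 0 were called in *bdrs* or in *fpa*, the smallest p in *fpa* being that of *MSI1* (adjusted p = 0.115) and in *bdrs* that of *VRN1* (adjusted p = 0.515). *VIN3*, which is induced by prolonged cold, received 0 reads in 17 of 18 libraries and 1 read in *fpa* 3. The methyltransferase genes *CLF* (0.55) and *SWN* (0.56) were called higher in *bdrs* against *fpa*, where 10.8% of all tested genes were. Neither was called with the length trend removed (0.19 and 0.22). In the clade of *FLC*, *MAF1* stood at 15.3, 14.5 and 14.8 CPM in *bdrs*, against 21.8, 19.9 and 25.8 CPM in *fpa* (−0.60 ± 0.17, adjusted p = 0.0226). *FD*, a flowering gene that encodes the partner of FT, stood at 1.97, 2.41 and 3.12 CPM in *bdrs*, against 0.760, 1.48 and 1.58 CPM in *fpa* (1.01 ± 0.27, adjusted p = 0.0158). Of all tested genes, 19.9% were called in either direction in *bdrs* against *fpa*.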
